A study of Homo sapiens with 16 samples.

Results

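The combined response to all-trans retinoic acid (ATRA) and Corin was contrasted between 2 human acute myeloid leukaemia lines, SKNO-1 and U-937. The contrast is the interaction: the log2 change from DMSO to the combination in U-937 minus the same change in SKNO-1. It was computed for 19872 of the 60603 genes in the authors' table, those with enough counts to test. Every tested gene was sorted into shared, line-restricted or opposite responses from 3 calls: the change in U-937, the change in SKNO-1 and the difference between them. The 8 libraries compared, of 16 in the series, were DMSO and the combination in each line with 2 libraries a group. Cells were exposed for 24 h to DMSO, the solvent control, or to ATRA and Corin together, each at 0.1 µM. The SKNO-1 medium also held GM-CSF at 10 ng/mL in every group, and line and medium cannot be told apart. The labels give no genotype and do not say whether the 2 libraries of a group came from separate cultures, so p-values measure the spread between these libraries, which may be technical.

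ATRA binds retinoic acid receptors, which sit with a retinoid X receptor on response elements in DNA and exchange corepressors for coactivators when the ligand is bound. Corin inhibits both enzyme activities of the CoREST corepressor complex, which removes histone methyl groups through LSD1 (the product of KDM1A) and acetyl groups through HDAC1 or HDAC2. CoREST is recruited by repressors such as GFI1 and REST. In myeloid leukaemia, retinoic acid and LSD1 inhibitors are both known for moving blasts toward granulocyte or monocyte features. SKNO-1 carries the RUNX1-RUNX1T1 fusion and grows with GM-CSF, whereas U-937 is a monocyte-like line with a PICALM-MLLT10 fusion. The design asks which parts of the response to both agents belong to one line and which to both.

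The 8 libraries held 28.8 to 36.9 M estimated counts. Levels below are CPM, counts relative to library sizes scaled by edgeR's TMM, changes are log2 fold changes, and a gene is called where its Benjamini-Hochberg adjusted p from edgeR's quasi-likelihood test is under 0.05. The line labels were matched by identity genes: RUNX1T1 was at 95.4 and 133 CPM in the SKNO-1 DMSO libraries and at 0.0302 and 0 CPM in those of U-937, while HOXA9 was at 55.7 and 51.8 CPM in U-937 and at 0 in all SKNO-1 libraries compared. The 2 DMSO libraries of SKNO-1 lay farther apart than the other 3 pairs compared, with a replicate SD of the log2 difference of 0.361 against 0.112 to 0.209 over 9132 well-expressed genes. Its difference moved with GC content (Pearson r 0.794 across 9114 genes, which are not independent replicates), and so did that of the U-937 DMSO pair (r 0.569). Every SKNO-1 change and every interaction uses this pair. With the GC trend removed from all libraries 9003 genes had a called interaction against 8072 without that step.

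The combination changed more genes in U-937 than in SKNO-1. In U-937, 11515 genes were called (57.9% of those tested), 5802 higher and 5713 lower. SKNO-1 had 8513 called genes (42.8%), of which 4276 rose and 4237 fell. The response itself differed between the lines in 8072 genes (40.6%), higher in U-937 in 3555 (17.9%) and lower in 4517 (22.7%). Leaving out 1 library at a time gave 6954 to 8571 interaction calls, and without TMM, on library totals alone, the split was 2767 higher and 5353 lower, with the median interaction of all genes at -0.26 against -0.11. In RNA from whole cultures, a gene expressed by fewer cells and less of its RNA per cell cannot be told apart.

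Shared responses were the larger part of the genes called in both lines. Of the 5882 genes called in both, 80.3% changed in one direction. In 2529 genes (12.7% of those tested) the direction was the same and the sizes were not shown to differ, 1332 rising and 1197 falling. In another 2195 genes (11%) the direction was the same but the size differed, and the change was larger in U-937 in 1836 of them and larger in SKNO-1 in 359. Opposite changes were called in 1158 genes (5.83%), of which 660 rose in U-937 and fell in SKNO-1 and 498 did the reverse. On library totals alone that split turned to 466 and 620, without SKNO-1 DMSO replicate 1 it was 818 and 837, and removal of the GC trend gave 930 and 519. Across the 12167 genes with at least 1 CPM in both lines the log2 changes of the lines had a Pearson r of 0.524 and a Spearman rho of 0.459, a description across genes of lines that share no library.

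Line-restricted responses were called in one line, not called in the other, and differed between them. They numbered 3355 genes for U-937 (16.9%; 1588 higher, 1767 lower) and 1201 for SKNO-1 (6.04%; 628 higher, 573 lower). On library totals alone these splits were 1229 and 2161 for U-937 and 724 and 419 for SKNO-1. With the GC trend removed both turned the other way, to 1739 higher and 1580 lower for U-937 and 585 higher and 642 lower for SKNO-1, so neither direction was the more frequent under every fit. A mean of at least 1 CPM in both lines was found in 2813 genes of the U-937 set and 863 of the SKNO-1 set. In the SKNO-1 set it was found in 322 of the 628 rises and 541 of the 573 falls. In the line that was not called, 285 genes of the U-937 set were silent in SKNO-1 (a mean under 0.5 CPM over its 4 libraries). Of the SKNO-1 set, 179 were silent in U-937. Some restricted calls lie at very low levels even in the line that changed, where both groups were under 0.5 CPM in 117 genes of the U-937 set and 110 of the SKNO-1 set. A further 2278 genes (11.5%) were called in U-937 and 1430 (7.2%) in SKNO-1 without a called difference, so these are not shown to be restricted. In 163 genes (0.82%) the interaction alone was called, and 5563 (28%) had no call.

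**Figure D1:**
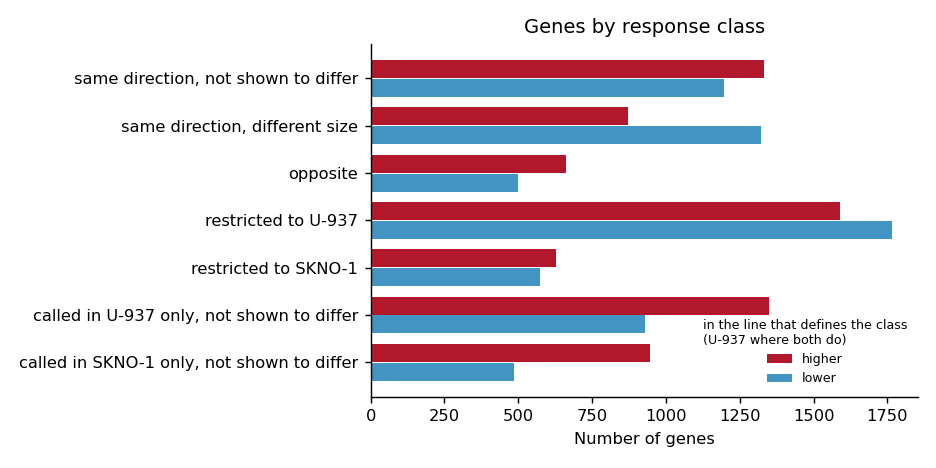
Number of genes in each response class, split by the direction of change; the horizontal axis is the number of genes. Red bars are genes higher and blue bars genes lower with the combination, in the line that defines the class, or in U-937 where both lines do. The 3355 genes restricted to U-937 outnumber the 1201 restricted to SKNO-1.

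Large falls were fewer in SKNO-1 than in U-937. Beyond 1 on the log2 scale, U-937 had 3401 rises (17.1%) and 3038 falls (15.3%), while SKNO-1 had 2781 rises (14%) and 378 falls (1.9%). Of the 3401 large rises in U-937, 1218 (35.8%) also rose beyond 1 in SKNO-1, where the median change of the 3401 genes was 0.81. Of the 3038 large falls in U-937, 124 (4.08%) also fell beyond 1 in SKNO-1, and the median SKNO-1 change of these genes was -0.29. From the SKNO-1 side, 1218 of the 2781 large rises (43.8%) and 124 of the 378 large falls (32.8%) were also large in U-937, where the medians were 1.05 and -0.64. The interaction was called in 43.0% of these rises and 50.5% of these falls, so the difference between rises and falls was smaller from that side. Interactions beyond 1 were higher in U-937 in 1642 genes (8.26%) and lower in 2904 (14.6%). The interaction was called at any size in 47.0% of the large U-937 rises and in 81.0% of the large U-937 falls. Among genes that changed one way with different size, the median rise was 1.73 in U-937 and 1.24 in SKNO-1, and the median fall was -1.46 and -0.52.

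**Figure D2:**
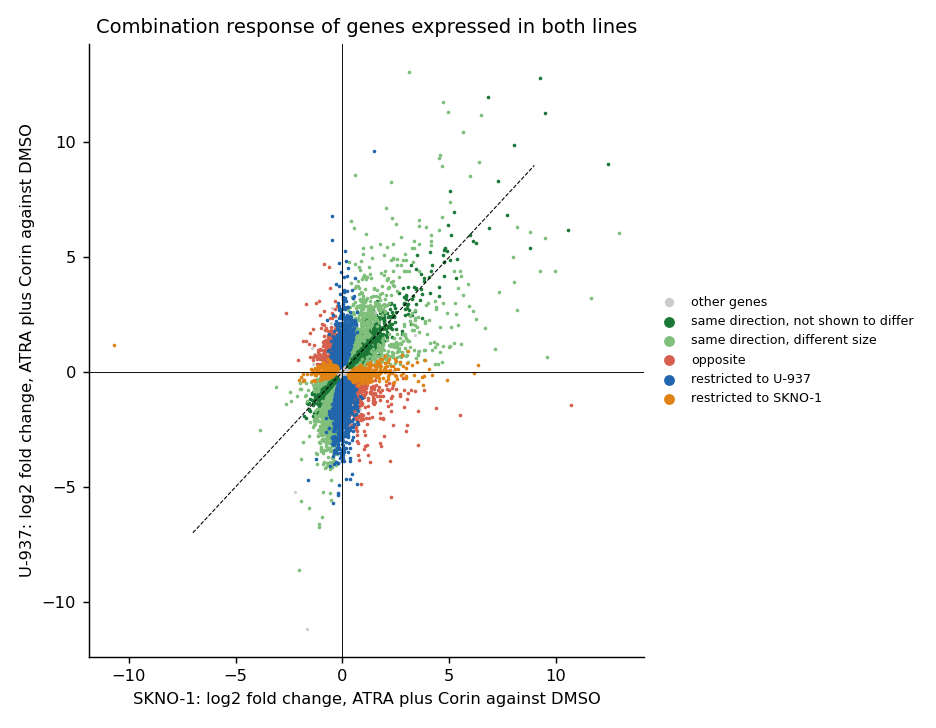
Log2 fold change of the combination against DMSO in SKNO-1 (horizontal axis) and in U-937 (vertical axis), 1 point for each of the 12167 genes averaging 1 CPM or more in both lines, coloured by response class; the dashed line marks equal change. Rises extend along both axes, whereas falls reach lower in U-937 than in SKNO-1; values of genes with no counts in a group are fitted values and no bounds.

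The classes also differed in gene type, level and base composition. Level bears on which genes can be called, and GC content moved with the SKNO-1 DMSO pair, and the part of either in these class values was not tested. Long noncoding RNAs made up 26.4% of the shared rises not shown to differ in size and 3.93% of such shared falls. They were 6.48% of opposite genes and 18.3% of all tested genes. Median levels over the 8 libraries were 3.43 CPM for those shared rises and 48.0 CPM for the shared falls. Median GC content of the exons was 43.0% in genes that rose in U-937 and fell in SKNO-1 and 52.2% in genes with the reverse pattern, against 47.6% in all tested genes. Genes restricted to SKNO-1 had 52.9% (higher) and 42.9% (lower). The opposite class was also counted with the GC trend removed and held 1449 genes, among them 86.8% of the 1158, and without SKNO-1 DMSO replicate 1 it held 1655.

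Among shared rises, the genes that rose most in both lines were near silent in DMSO, a start that ranking by log2 change favours. HIC1 (ENSG00000177374.13, chr17:2054154-2063241 in GENCODE 44 on GRCh38, as for the other positions), a zinc finger transcriptional repressor, was at 0.240 and 0.169 CPM in the SKNO-1 DMSO libraries and 30.9 and 33.6 CPM with the combination, and at 0.0302 and 0.0983 then 22.2 and 20.2 CPM in U-937. The combination reached like levels in both lines. Groups without overlap were a condition of naming by rank, in each line where a gene was called. Over all tested genes the libraries of the 2 groups do not overlap in 76% in U-937 and in 66.3% in SKNO-1. The log2 change of HIC1 was 8.31 (SE 0.269) in U-937 and 7.28 (SE 0.218) in SKNO-1, and the difference of 1.03 was not called (adjusted p = 0.27). LRRC32, the surface anchor of latent TGF-beta, had 0 counts in all 4 DMSO libraries and reached 19.9 and 21.7 CPM in SKNO-1 and 1.70 and 2.31 CPM in U-937. Against a floor of 3 counts over the DMSO group the combination level was at least 477-fold higher in SKNO-1 and at least 42.1-fold higher in U-937; with both DMSO groups at 0 the interaction of LRRC32 cannot be judged.

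RARB (ENSG00000077092.19, chr3:24687887-25597932), the retinoic acid receptor beta and a textbook direct target of retinoic acid, also had 0 counts in all 4 DMSO libraries. It reached 2.37 and 2.14 CPM in SKNO-1 and 23.1 and 29.8 CPM in U-937. All combination libraries lay above all DMSO libraries, which was a condition of its naming. RARB reached the mean of 5 CPM needed for naming through U-937 alone. Against the same floor the combination level was at least 51.7-fold higher in SKNO-1 (adjusted p = 2.15e-08) and at least 556-fold higher in U-937 (adjusted p = 2.31e-12), and the levels reached were higher in U-937, but the interaction again rests on 2 groups at 0. Its promoter is shown because it holds the element that the ATRA receptor is known to bind. The window runs from 250 bases before to 50 bases after the RefSeq start (GRCh38.p14, chr3:25428013-25428312, plus strand), and capitals mark the direct repeat spaced by 5 bases of the retinoic acid response element, 53 bases before the start:
RARB: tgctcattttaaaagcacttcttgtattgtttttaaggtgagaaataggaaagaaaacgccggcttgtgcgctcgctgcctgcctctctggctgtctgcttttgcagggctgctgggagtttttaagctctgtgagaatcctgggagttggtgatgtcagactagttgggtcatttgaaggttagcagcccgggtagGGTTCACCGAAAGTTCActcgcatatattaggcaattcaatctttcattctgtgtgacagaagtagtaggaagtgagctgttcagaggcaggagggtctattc
A direct repeat of this kind, searched on both strands, was found in 22 of 27305 RefSeq promoter windows (0.0806%). It was found in 2 of the 771 windows of shared rises not shown to differ in size (0.259%).

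The other shared rises named by rank are genes of myeloid surfaces and sugar chains. CEACAM1, a cell adhesion receptor of granulocytes, had 0 counts in the SKNO-1 DMSO libraries and 1.14 and 1.13 CPM with the combination, and went from 0.0302 and 0.0328 to 122 and 122 CPM in U-937. LILRA5, an activating leukocyte immunoglobulin-like receptor, went from 0 and 0.0282 to 4.84 and 4.78 CPM in SKNO-1 and from 0.483 and 0.229 to 329.5 and 369 CPM in U-937. CHST15, a sulfotransferase that builds chondroitin sulfate E, went from 0 counts to 1.36 and 1.5 CPM in SKNO-1 and from 0.0302 and 0.0655 to 56.3 and 54.8 CPM in U-937. All 3 genes rose in both lines and ended at far lower levels in SKNO-1. Groups without overlap were a condition of their naming. The 3 genes reached the mean of 5 CPM needed for naming through U-937 alone, which favours a lower level in SKNO-1. In SKNO-1 the combination level was at least 26.0-fold higher for CEACAM1 and at least 32.8-fold higher for CHST15, and the ratio for LILRA5 was 331 (95% counting interval 58.9 to 13107). No interaction was called for them, but with 0 or 1 count in SKNO-1 DMSO the size of the difference is not measured.

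The CHST15 window is printed because it holds AATCACNGC, the letters searched here for GFI1, which recruits CoREST and LSD1. N stands for any base, and in this match it is C. Capitals mark a match on the printed strand, 180 bases before the RefSeq start (GRCh38.p14, chr10:124093549-124093848, minus strand). Such a match occurs in 1.07% of all windows and 1.43% of those of shared rises not shown to differ in size:
CHST15: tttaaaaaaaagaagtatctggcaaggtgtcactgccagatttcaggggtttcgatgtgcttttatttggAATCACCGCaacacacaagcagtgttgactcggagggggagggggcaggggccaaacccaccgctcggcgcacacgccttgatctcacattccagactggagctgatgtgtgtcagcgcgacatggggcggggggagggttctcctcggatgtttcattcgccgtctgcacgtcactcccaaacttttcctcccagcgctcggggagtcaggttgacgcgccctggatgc
A match in such a window is a description of the letters and not of binding.

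Shared falls ranked first included CST7, TENT5C and EBF3. CST7 (ENSG00000077984.6, chr20:24949269-24959928), cystatin F, an inhibitor of granule proteases, fell from 159 and 124 to 9.96 and 9.83 CPM in SKNO-1 and from 368 and 363 to 60.8 and 65.3 CPM in U-937. It is one of the falls that were larger in SKNO-1: -3.83 (SE 0.130) against -2.54 (SE 0.116), an interaction of 1.30 (adjusted p = 3.2e-06). TENT5C, a noncanonical poly(A) polymerase, went from 283 and 307 to 84.4 and 79.6 CPM in SKNO-1 and from 121 and 125 to 13.8 and 16.2 CPM in U-937, and fell by more in U-937 (interaction -1.19, adjusted p = 4.76e-07). EBF3, an early B-cell factor family transcription factor, went from 13.1 and 15.8 to 3.22 and 4.26 CPM in SKNO-1 and from 12.2 and 13.2 to 0.256 and 0.264 CPM in U-937. That no combination library of these 3 genes reached the range of its DMSO libraries was a condition of their naming.

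PRG2, KCNN2 and IGLL1 fell in both lines from unequal starting levels. PRG2, the eosinophil major basic protein, went from 68.0 and 49.2 to 6.35 and 7.26 CPM in SKNO-1, and in U-937 from 0.121 and 0.262 CPM to 0 counts. KCNN2, a calcium-activated potassium channel, went from 19.8 and 19.8 to 0.398 and 0.859 CPM in U-937 and from 0.420 and 0.479 to 0 and 0.0612 CPM in SKNO-1. IGLL1, the surrogate light chain gene of B-cell precursors, which has near-identical relatives, went from 133 and 79.4 to 25.6 and 26.3 CPM in SKNO-1 and from 8.13 and 6.95 to 0.0284 and 0 CPM in U-937. PRG2 in U-937 and KCNN2 in SKNO-1 started below 0.5 CPM, so one side of each comparison rests on few reads. The direction of the KCNN2 interaction, which was not called, turned from -1.29 to 1.93 without SKNO-1 combination replicate 2.

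**Figure D3:**
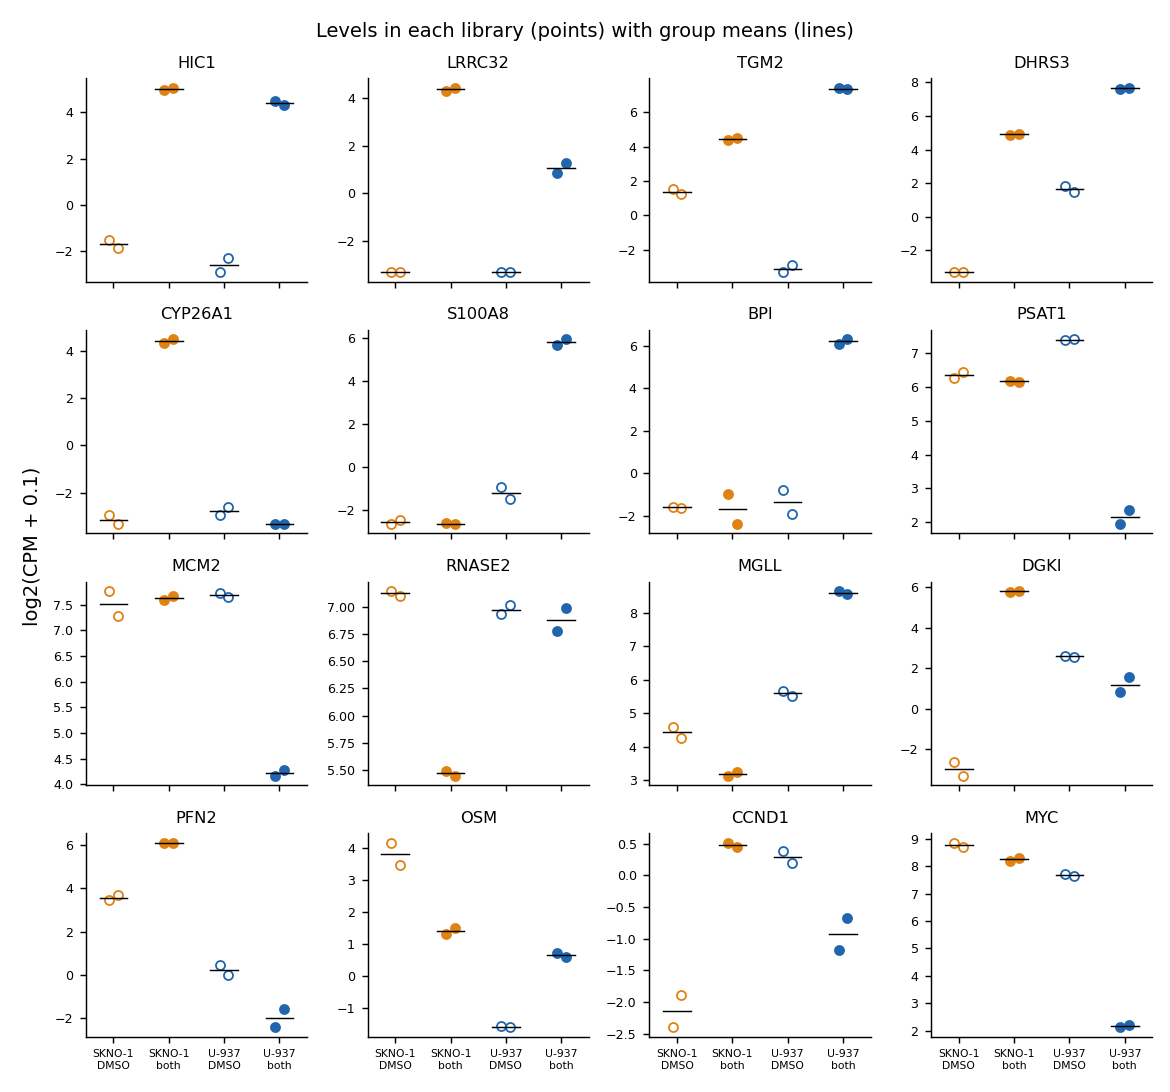
Levels of 16 genes in each library on a log2(CPM + 0.1) axis: 2 points for each group, open for DMSO and filled for the combination ("both"), SKNO-1 in orange and U-937 in blue, with a line at the mean of each pair. HIC1 and LRRC32 rise in both lines, S100A8, BPI, PSAT1 and MCM2 move in U-937, CYP26A1 and RNASE2 in SKNO-1, and MGLL, DGKI, PFN2, OSM and CCND1 move in opposite directions.

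Retinoid genes held shared and split responses within 1 pathway. Of 18 tested genes of retinoic acid turnover, binding and reception, 11 rose and 3 fell in U-937 (against 29.2% higher and 28.7% lower over all tested genes), 11 rose and 1 fell in SKNO-1 (21.5% and 21.3%), and 4 were higher and 7 lower in the interaction (17.9% and 22.7%). These all-gene shares are the background of the list counts that follow. Their median change was 0.98 in U-937 and 1.08 in SKNO-1, against 0 and 0.02 over all tested genes. Of the receptors, RARA rose in both lines (0.72 and 1.22, interaction adjusted p = 0.104), and RARG rose by 3.08 in SKNO-1 and 0.45 in U-937 (interaction adjusted p = 6.94e-07). RXRA rose by 0.41 in SKNO-1 and was not called in U-937 (-0.13, adjusted p = 0.44).

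The enzymes and targets of retinoic acid separated the lines. CYP26A1 (ENSG00000095596.12, chr10:93073475-93077885), the main retinoic acid hydroxylase, was at 0.0300 and 0 CPM in the SKNO-1 DMSO libraries and at 20.1 and 22.2 CPM with the combination. In U-937 it was at 0.0302 and 0.0655 CPM with DMSO and 0 counts with the combination, so it was at or under the floor in both U-937 groups. The SKNO-1 ratio was 1456 (95% counting interval 261 to 57546), and the interaction was called (adjusted p = 1.98e-05). DHRS3, a retinaldehyde reductase, had 0 counts in SKNO-1 DMSO and 29.5 and 30.2 CPM with the combination, at least 685-fold higher, and went from 3.38 and 2.72 to 196 and 206 CPM in U-937. It rose in both lines, to a higher level in U-937 but from a start that was not at 0 there (interaction adjusted p = 8.66e-06).

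TGM2 (ENSG00000198959.12, chr20:38127385-38166578), transglutaminase 2, had the largest positive interaction of the protein-coding genes expressed in both lines that met the conditions for naming. It was at 2.79 and 2.26 CPM in SKNO-1 DMSO and 20.5 and 22.9 CPM with the combination, and at 0 and 0.0328 then 174 and 161 CPM in U-937. U-937 thus started lower and ended higher, with a ratio of 10687 (95% counting interval 1918 to 422150.0) there and a log2 change of 3.11 (SE 0.137) in SKNO-1 (interaction 9.96, SE 0.393, adjusted p = 5.39e-13). CD38, an ADP-ribosyl cyclase and known retinoic acid target, went from 12.7 and 11.5 to 310.3 and 351 CPM in U-937, while SKNO-1 held 224 and 259 CPM before and 301 and 297 CPM after. ASB2, a ubiquitin ligase subunit, showed the reverse order: a rise of 5.58 from 0.360 and 0.451 CPM in SKNO-1 and of 1.24 from 16.6 and 15.4 CPM in U-937 (interaction adjusted p = 3.81e-11). RDH10, a retinol dehydrogenase, fell in both, by more in SKNO-1 (-2.38 against -1.24, interaction adjusted p = 2.54e-05).

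Several surface receptors rose in both lines with a larger change in U-937. CD52 (ENSG00000169442.9, chr1:26317958-26320523), a small lipid-anchored glycoprotein of leukocytes, was at 17.1 and 16.5 CPM in SKNO-1 DMSO and 26.2 and 24.7 CPM with the combination, against 0.363 and 0.393 then 139 and 157 CPM in U-937. The log2 change was 8.60 (SE 0.178) in U-937 and 0.60 (SE 0.112) in SKNO-1, an interaction of 8.0 (SE 0.217, adjusted p = 1.36e-14). P2RY13, a receptor for ADP, rose by 8.28 in U-937 and 2.28 in SKNO-1, and ADGRE3, an adhesion receptor of myeloid cells, by a ratio of 3199 (95% counting interval 574 to 126400.0) in U-937 and by 4.93 on the log2 scale in SKNO-1. CXCR5, a chemokine receptor better known from B cells, rose from 0 counts to 12.2 and 13.6 CPM in U-937 and from 1.17 and 0.789 to 26.0 and 26.1 CPM in SKNO-1. PLXDC2 went from 0.0302 and 0.0328 to 3.38 and 3.30 CPM in U-937 and from 31.9 and 38.1 to 46.7 and 46.7 CPM in SKNO-1, where it was the more abundant throughout. Interaction p-values of these 5 genes ran from 1.36e-14 for CD52 to 3.77e-06 for CXCR5, whose U-937 DMSO group was at 0.

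The rises ranked first among those restricted to U-937 in genes that SKNO-1 kept near silent were in granule proteins and surface receptors. BPI (ENSG00000101425.13, chr20:38304150-38337505), a bactericidal protein of neutrophil granules, was at 0.483 and 0.164 CPM in U-937 DMSO and 69.3 and 79.5 CPM with the combination, and at 0.240 and 0.226 then 0.411 and 0.0919 CPM in SKNO-1. S100A8, a subunit of calprotectin, went from 0.423 and 0.262 to 50.5 and 61.2 CPM in U-937 and was at 0.0600 and 0.0846 then 0.0632 and 0.0612 CPM in SKNO-1. Both genes were near silent in SKNO-1, where the groups overlapped, and neither was called there. The U-937 changes were 7.80 (SE 0.333) for BPI and 7.32 (SE 0.264) for S100A8, with interactions of 7.71 (adjusted p = 2.44e-06) and 7.53 (adjusted p = 3.12e-05). CD36, a scavenger receptor for lipids, rose from 25.5 and 32.3 to 764 and 892 CPM in U-937 and had 2 counts in SKNO-1 DMSO and 0 with the combination, and its interaction lost its call in 2 of 19 alternative fits. GPR34, a receptor for lysophosphatidylserine, rose from 0.121 and 0.360 to 51.0 and 56.2 CPM in U-937 and was at 0.360 and 0.451 then 0.759 and 0.398 CPM in SKNO-1.

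A second group of rises restricted to U-937 was in genes that SKNO-1 also expressed. GBP2, an interferon-induced guanylate-binding protein, went from 1.99 and 2.00 to 69.3 and 83.2 CPM in U-937 and from 25 and 28.2 to 29.2 and 28.5 CPM in SKNO-1 (5.25 and 0.12; interaction adjusted p = 3.94e-13). TRIB1, a pseudokinase that directs degradation of C/EBP-alpha, went from 1.30 and 1.80 to 30.7 and 32.3 CPM in U-937 and from 15.3 and 17.3 to 14.9 and 16.9 CPM in SKNO-1. CASS4, a scaffold of focal adhesions, went from 0.242 and 0.393 to 6.65 and 7.93 CPM in U-937 and from 16.1 and 15.9 to 19.4 and 19.6 CPM in SKNO-1 (adjusted p = 0.0786). In these 3 genes U-937 started below SKNO-1, and after the combination GBP2 and TRIB1 lay above the SKNO-1 level and CASS4 below it. KIF13A, a kinesin, was ranked here as well, but its U-937 rise was from 0 counts to 0.0852 and 0.0661 CPM, at least 1.62-fold higher. That rise lost its call in 3 of 19 alternative fits, and KIF13A passed the level needed for naming through SKNO-1 alone.

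PSAT1 (ENSG00000135069.14, chr9:78297125-78330093), an enzyme of serine synthesis, was among the falls ranked first of those restricted to U-937. It went from 167 and 171 to 3.75 and 5.02 CPM in U-937 and from 77.2 and 86.5 to 72.6 and 71.5 CPM in SKNO-1. The change was -5.27 (SE 0.138) and -0.18 (SE 0.108, adjusted p = 0.184), an interaction of -5.09 (adjusted p = 1.17e-13). GPR153, an orphan receptor, fell by 5.35 on the log2 scale in U-937, from 18.8 and 16.4 to 0.312 and 0.562 CPM, and was at -0.19 in SKNO-1 (adjusted p = 0.588). KAZN, kazrin, a protein of cell junctions, fell from 19.6 and 19.9 to 1.19 and 1.12 CPM in U-937 and was at or under the floor in SKNO-1. Its interaction lost its call in 1 of 19 alternative fits. KAZN was ranked among genes silent in 1 line, so that silence is fixed by the choice. WWC1 and ZNF695 were near silent in U-937 from the start. DMSO levels there were 0.0906 and 0.164 CPM for WWC1 and 0.212 and 0.0328 CPM for ZNF695, and both were at 0 with the combination. Both genes passed the level needed for naming through SKNO-1 alone, so a higher level there is fixed by how they were chosen. Their interactions lost their calls in 1 and 3 of 19 alternative fits.

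The rises ranked first among those restricted to SKNO-1 passed the level needed for naming through U-937 alone, since TSHZ3, COL4A2, RAB11FIP5 and C11orf45 stayed low in SKNO-1; a steady level in U-937 is thus fixed by how they were chosen. TSHZ3, a zinc finger transcription factor, had 0 counts in SKNO-1 DMSO and 0.379 and 0.306 CPM with the combination, at least 7.85-fold higher, and was at 22.2 and 21.6 then 21.9 and 20.5 CPM in U-937. COL4A2, a chain of basement membrane collagen, went from 0 and 0.0282 to 0.664 and 0.429 CPM in SKNO-1 and from 17.0 and 16.2 to 18.8 and 17.9 CPM in U-937. RAB11FIP5, an endosome recycling factor, went from 0 and 0.0282 to 0.411 and 0.490 CPM in SKNO-1 and from 27.5 and 23.6 to 29.7 and 27.2 CPM in U-937. All these SKNO-1 levels stayed well below those of U-937, so large log2 values here stand for small amounts of RNA; the same holds for C11orf45, which reached 0.0948 and 0.184 CPM. DNM1, the neuronal dynamin, was a list member with a higher level reached, from 0.420 and 0.423 to 5.37 and 5.76 CPM in SKNO-1 (3.71, SE 0.285) and from 5.32 and 3.83 to 4.74 and 3.21 CPM in U-937 (interaction adjusted p = 6.01e-08).

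Falls restricted to SKNO-1 that were ranked first were those of SASH1, RNASE3, CDH26 and RNASE2. RNASE2 (ENSG00000169385.3, chr14:20955487-20956436), the eosinophil-derived neurotoxin, went from 142 and 137 to 44.9 and 43.5 CPM in SKNO-1 and from 122 and 129 to 109 and 127 CPM in U-937. The lines were alike in DMSO and apart with the combination: the change was -1.66 (SE 0.101) in SKNO-1 and -0.09 (SE 0.0975) in U-937, an interaction of 1.57 (adjusted p = 3.3e-08). RNASE3, the eosinophil cationic protein and a close paralog whose reads may be shared with RNASE2, fell by 1.93 on the log2 scale in SKNO-1 and was at -0.23 in U-937 (adjusted p = 0.0921; interaction adjusted p = 2.24e-06). CDH26, a cadherin, went from 26.1 and 28.7 to 8.66 and 7.35 CPM in SKNO-1 and from 2.12 and 1.80 to 1.59 and 1.45 CPM in U-937. SASH1, a scaffold protein, fell in SKNO-1 at low level, from 0.240 and 0.564 to 0.0948 and 0.0919 CPM, and lost its call in 2 of 19 alternative fits. It passed the level needed for naming through U-937 alone.

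Opposite responses were called up in one line and down in the other, and the lines moved apart, crossed or came nearer depending on the gene. MGLL (ENSG00000074416.14, chr3:127689062-128052190), monoacylglycerol lipase, went from 24.2 and 19.0 to 8.69 and 9.37 CPM in SKNO-1 and from 50.2 and 46.2 to 404 and 376 CPM in U-937. The lines moved apart: 3.01 (SE 0.105) in U-937 and -1.26 (SE 0.113) in SKNO-1, an interaction of 4.27 (SE 0.152, adjusted p = 1.99e-13). Groups without overlap within each line were a condition of naming. BTG2, an antiproliferative gene and p53 target, went from 17.8 and 16.4 to 8.09 and 7.69 CPM in SKNO-1 and from 2.75 and 2.85 to 22.2 and 26.2 CPM in U-937, so the order of the lines was exchanged. ENC1, an actin-binding kelch protein, was exchanged in the same way, from 32.9 and 35.3 to 14 and 12.7 CPM in SKNO-1 and from 12.1 and 14 to 28 and 31.2 CPM in U-937. ARHGAP24, an activator of RAC GTP hydrolysis, changed by 1.21 and -1.55, and LTBP1, which binds latent TGF-beta, by 1.37 and -1.86, in U-937 and SKNO-1. Both changes exceeded 1 on the log2 scale in 27 of the 660 genes with this orientation.

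The reverse orientation, lower in U-937 and higher in SKNO-1, held 183 genes with both changes beyond 1. DGKI (ENSG00000157680.15, chr7:137381037-137847092), diacylglycerol kinase iota, had the largest negative interaction of the protein-coding genes expressed in both lines that met the conditions for naming. It went from 0.0600 and 0 to 54.5 and 56.3 CPM in SKNO-1 and from 6.01 and 5.86 to 1.65 and 2.84 CPM in U-937. The SKNO-1 ratio was 1907 (95% counting interval 527 to 15749) and the U-937 log2 change -1.42 (SE 0.211), with an interaction adjusted p of 2.13e-13. NCS1, neuronal calcium sensor 1, went from 0.330 and 0.395 to 1.83 and 1.68 CPM in SKNO-1 and from 23.8 and 24.0 to 0.568 and 0.529 CPM in U-937. In both genes the line that was the higher in DMSO was the lower with the combination. WFDC1, a secreted protein with a protease inhibitor fold, changed by -3.18 and 3.57, CCDC136 by -2.29 and 3.02, and EPHB4, an ephrin receptor, by -1.56 and 4.40, in U-937 and SKNO-1 in that order.

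PFN2, profilin 2, went from 11 and 12.7 to 69.3 and 69.6 CPM in SKNO-1 and from 1.27 and 0.885 to 0.0852 and 0.231 CPM in U-937, so it widened a gap that DMSO already showed. ASS1, the argininosuccinate synthase of arginine synthesis, which has many processed pseudogenes, fell from 119.8 and 114 to 8.72 and 10.9 CPM in U-937 and rose from 0.0300 and 0.0564 to 0.221 and 0.276 CPM in SKNO-1. SEPT3, a septin, fell by 2.00 on the log2 scale in U-937 and rose in SKNO-1 from 0 counts to 0.285 and 0.122 CPM. The SKNO-1 sides of ASS1 and SEPT3 are thus at trace level, and the ASS1 rise lost its call in 1 of 19 alternative fits (adjusted p up to 0.176).

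DNA replication genes fell in U-937 and far less in SKNO-1. Of 41 tested members, 40 fell and 1 rose in U-937 (28.7% and 29.2% of all tested genes), with a median change of -2.79; in SKNO-1 24 fell and 1 rose (21.3% and 21.5%), with a median of -0.34; and the interaction was lower in 40 and higher in 1, with a median of -2.52 against -0.11 over all tested genes. MCM2, a subunit of the replicative helicase, went from 213 and 201 to 17.8 and 19.2 CPM in U-937 and from 217 and 155 to 192 and 202 CPM in SKNO-1. All U-937 combination libraries lay below all other libraries of the 4 groups, and the change was -3.48 (SE 0.135) and 0.08 (SE 0.119, adjusted p = 0.621). CDC45, another helicase component, changed by -4.23 and -0.58, PCNA, the sliding clamp, by -2.61 and -0.34, and CCNE1, cyclin E1, by -2.94 and -0.94, in U-937 and SKNO-1. The exceptions were TK1, thymidine kinase 1, which fell in U-937 (-2.33) and rose in SKNO-1 (0.65), and the transcription factor E2F2, which rose in U-937 (1.04) and was at 0.00 in SKNO-1 without a call.

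The member of this list with the lowest interaction among those with an E2F match in the RefSeq window was GINS2 (ENSG00000131153.9, chr16:85676198-85690073), a subunit of the GINS complex, part of the active replicative helicase. It went from 49.4 and 51.5 to 1.96 and 1.88 CPM in U-937 and from 52.2 and 53.5 to 37.5 and 35.8 CPM in SKNO-1 (-4.71 and -0.53, interaction adjusted p = 2.09e-13), and was chosen for printing after its values were seen. Its window (GRCh38.p14, chr16:85688905-85689204, minus strand) shows the E2F match TTTCCCGC in capitals as its reverse complement, 31 bases before the start:
GINS2: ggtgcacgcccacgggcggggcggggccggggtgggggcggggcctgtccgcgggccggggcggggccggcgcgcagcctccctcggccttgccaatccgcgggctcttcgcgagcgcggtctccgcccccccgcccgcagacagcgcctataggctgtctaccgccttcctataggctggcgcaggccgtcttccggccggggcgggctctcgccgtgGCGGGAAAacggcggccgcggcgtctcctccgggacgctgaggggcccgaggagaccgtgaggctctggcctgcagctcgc
One of the letters TTTGGCGC, TTTCCCGC or TTTCGCGC was present, on either strand, in 57.1% of the 35 replication genes with a window, against 4.36% of the 11497 tested genes with one and 2.79% of all 27305 windows.

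Mitosis and ribosome assembly genes followed the same pattern. Of 35 tested mitosis genes, 35 fell in U-937 (28.7% of all tested genes; median -1.56), 27 fell and 2 rose in SKNO-1 (21.3% and 21.5%; median -0.39), and the interaction was lower in 33. MKI67, the proliferation antigen, changed by -2.11 and -0.63 in U-937 and SKNO-1, CDC25A, a CDK-activating phosphatase, by -3.92 and -0.86, and BUB1, a checkpoint kinase, by -0.75 and -0.69, with no called difference for BUB1 (adjusted p = 0.807). AURKB and NUSAP1 fell in U-937 (-1.59 and -1.01) and rose in SKNO-1 (0.36 and 0.28). The CHR letters TTTGAA were in 62.1% and CCAAT in 65.5% of the 29 mitosis genes with a window, on either strand, against 10.4% and 36.3% of tested genes with one. Of 40 ribosome biogenesis factors, 40 fell in U-937 (28.7% of all tested genes; median -1.82), 28 fell and 0 rose in SKNO-1 (21.3% and 21.5%; median -0.40), and all 40 interactions were lower in U-937. Here NOLC1, a nucleolar phosphoprotein, changed by -3.21 and -0.28, and NPM1, nucleophosmin, by -1.32 and -0.30.

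**Figure D4:**
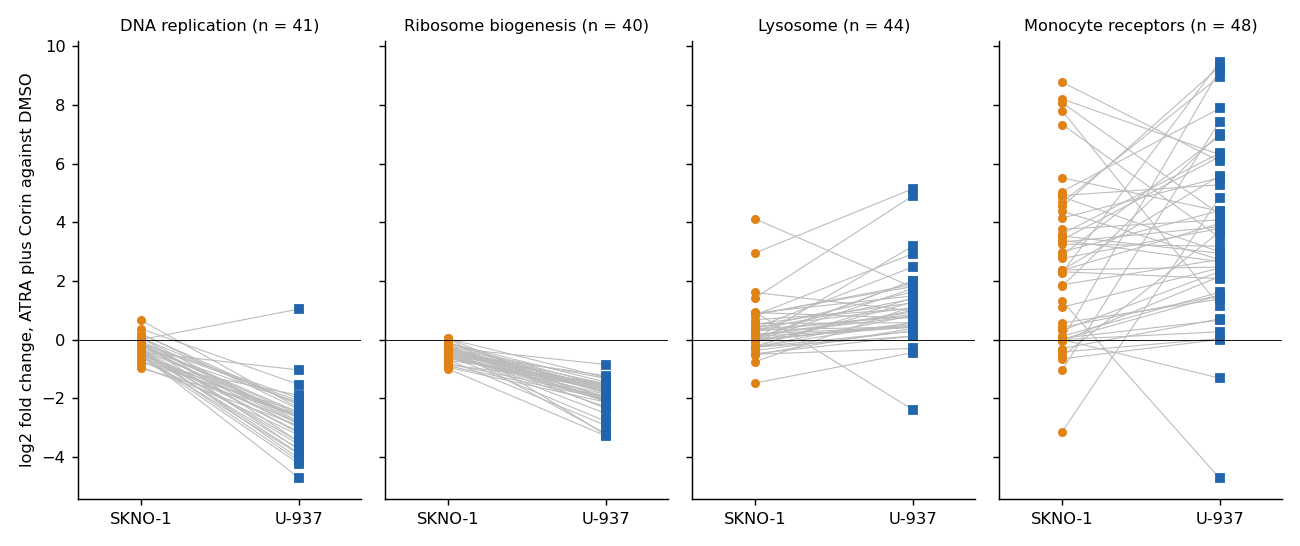
Log2 fold change of the combination against DMSO for each tested member of 4 gene lists, SKNO-1 at left and U-937 at right in each panel, with a grey line joining the values of a gene; n is the number of genes. In U-937, 40 of 41 replication genes and 40 of 40 ribosome factors fell, while 38 of 44 lysosome genes rose.

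MYC fell in both lines and G1 regulators moved in several ways. MYC, the transcription factor that drives growth and ribosome production, went from 212 and 201 to 4.23 and 4.53 CPM in U-937 and from 464 and 411 to 295 and 312 CPM in SKNO-1. It fell in both lines without overlap, with log2 changes of -5.56 (SE 0.114) and -0.53 (SE 0.0867), and the difference of -5.03 was called (adjusted p = 1.36e-14). Of the 16 tested CDK inhibitors and G1 regulators, 3 rose and 8 fell in each line (medians -0.27 and -0.26). Over all tested genes, 29.2% rose and 28.7% fell in U-937, and 21.5% rose and 21.3% fell in SKNO-1. CDKN1A (p21) went from 2.42 and 2.72 to 57.3 and 64.1 CPM in U-937 and from 4.92 and 5.13 to 11.6 and 12.6 CPM in SKNO-1, and CDKN2D (p19) rose by 1.95 and 2.14 with no called difference. CCND2 changed by -3.93 and -0.32 and CDK6 by -2.04 and -1.34, whereas CCND1, cyclin D1, was opposite at low levels, from 0.0900 and 0.169 to 1.33 and 1.26 CPM in SKNO-1 and from 1.21 and 1.05 to 0.341 and 0.529 CPM in U-937.

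Most monocyte and macrophage surface receptors rose in each line. Of 48 tested, 41 rose and 1 fell in U-937 (29.2% and 28.7% of all tested genes; median 3.58), 32 rose and 3 fell in SKNO-1 (21.5% and 21.3%; median 2.37), and the interaction was higher in 24 and lower in 8. ITGAM (ENSG00000169896.18, chr16:31259967-31332892), the CD11b integrin chain, went from 0.450 and 0.338 to 117 and 116 CPM in SKNO-1 and from 4.65 and 4.42 to 353 and 367 CPM in U-937. It rose in both, by more on the log2 scale in SKNO-1 (8.20 against 6.31, interaction adjusted p = 1.09e-06), where the starting level was near 0. CSF1R, the receptor for M-CSF, rose by 5.28 and 4.91 and CD68, a scavenger receptor family member, by 3.19 and 3.26, in U-937 and SKNO-1, with no called difference. CD86, a costimulatory ligand, rose by 8.97 and 4.68, and VSIG4, a complement receptor, by a ratio of 675 (95% counting interval 231 to 3276) in U-937 and by 4.54 on the log2 scale in SKNO-1, both with a called difference.

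Within this list some receptors separated the lines. CD33 rose in U-937 (0.70) and fell in SKNO-1 (-0.31), and C3AR1, the receptor for complement C3a, did the same (3.67 and -0.57). MRC1, the macrophage mannose receptor, rose in SKNO-1 from 1.65 and 1.95 to 4.36 and 4.56 CPM and fell in U-937 from 0.0302 and 0.164 CPM to 0. CD14, the lipopolysaccharide coreceptor, rose in SKNO-1 from 0 counts to 0.822 and 0.827 CPM and was at 0.0906 and 0.0983 then 0.227 and 0.198 CPM in U-937, where it was not called (adjusted p = 0.266). CSF3R, the G-CSF receptor, went from 53.5 and 44.1 to 234 and 199 CPM in U-937 and from 91.8 and 66.1 to 73.8 and 79.3 CPM in SKNO-1, and TLR4 rose by 1.61 in U-937 and was at 0.12 in SKNO-1, both restricted to U-937. CCR2, the receptor for CCL2, rose by more in SKNO-1, by a ratio of 550.2 (95% counting interval 98.3 to 21775), against a log2 change of 6.08 in U-937 (interaction adjusted p = 0.0185).

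Granule and oxidase genes moved both ways. Of 16 tested azurophil granule genes, 5 rose and 4 fell in U-937 and 4 rose and 5 fell in SKNO-1 (medians 0.09 and -0.14). The U-937 counts and the SKNO-1 rises are near the shares of all tested genes (29.2% and 28.7% in U-937, 21.5% in SKNO-1), against 21.3% for SKNO-1 falls. Their interaction was higher in 7 and lower in 2 (17.9% and 22.7% of all tested genes), with a median of 0.57. LYZ, lysozyme, went from 61.7 and 68.8 to 395 and 383 CPM in SKNO-1 and from 208 and 236 to 2455 and 2669 CPM in U-937, and PRTN3, proteinase 3, was opposite, from 11.1 and 5.55 to 63.1 and 71.1 CPM in SKNO-1 and from 46.8 and 34.4 to 17.5 and 18.4 CPM in U-937. Of 14 later granule and S100 genes, 13 rose in U-937 (29.2% of all tested genes; median 3.99), against 5 that rose and 1 that fell in SKNO-1 (median 0.24). The fall was S100A4, which rose in U-937 (1.51) and fell in SKNO-1 (-0.51). Among these 14 genes the interaction was higher in 6 and lower in 0, with a median of 2.76. Of the 7 NADPH oxidase genes, 6 rose and 1 fell in U-937 and 5 rose in SKNO-1. CYBB, the catalytic gp91 subunit, rose from 16.8 and 17.6 to 544 and 673 CPM in U-937 and from 0 counts to 0.443 and 0.398 CPM in SKNO-1, and HVCN1, the proton channel, was opposite (-0.95 and 1.54).

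Lysosome genes rose mainly in U-937. Of 44 tested members, 38 rose and 2 fell there (29.2% and 28.7% of all tested genes; median 0.96), 19 rose and 9 fell in SKNO-1 (21.5% and 21.3%; median 0.14), and the interaction was higher in 31 and lower in 2. The summed level of the list went from 5207 to 5364 CPM in the U-937 DMSO libraries to 14815 to 15452 CPM with the combination, and from 4096 to 4216 CPM to 4801 to 4834 CPM in SKNO-1. CTSD (ENSG00000117984.14, chr11:1752752-1764573), cathepsin D, went from 354 and 265 to 3010.5 and 2603 CPM in U-937 and from 40.2 and 21.9 to 31.2 and 32.1 CPM in SKNO-1, where it was not called (adjusted p = 0.967). GRN, progranulin, rose by 5.14 and 2.96, PSAP, the saposin precursor, by 2.92 and 0.84, and TFEB, the transcription factor known for driving lysosome genes, by 1.79 and 4.11, in U-937 and SKNO-1. CD63, a tetraspanin of lysosomes and granules, was opposite, at 143 and 146 then 289 and 340.1 CPM in U-937 and 190.5 and 184 then 112 and 110.1 CPM in SKNO-1.

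**Figure D5:**
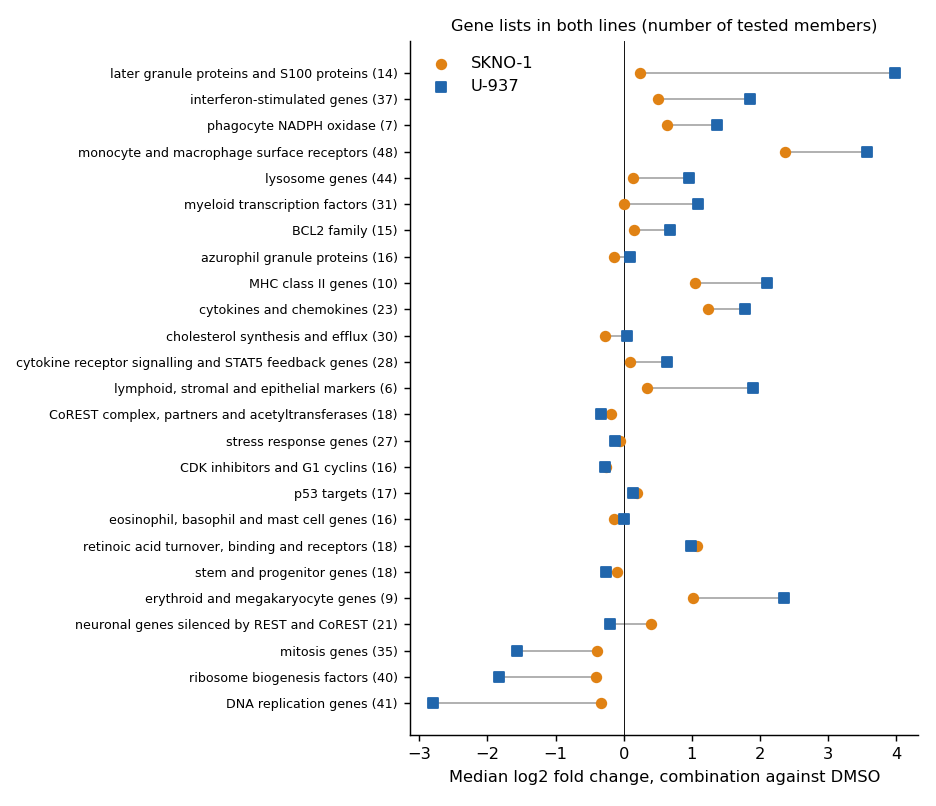
Median log2 fold change of the combination against DMSO over the tested members of each gene list, with U-937 as blue squares and SKNO-1 as orange circles joined by a line; the number of tested members is in parentheses, and lists are ordered by their median interaction. DNA replication genes lie at -2.79 in U-937 and -0.34 in SKNO-1, and monocyte receptors at 3.58 and 2.37.

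Many interferon and antigen presentation genes rose, with differences between members and lines. Of 37 tested interferon-stimulated genes, 26 rose and 3 fell in U-937 (29.2% and 28.7% of all tested genes; median 1.85), 17 rose and 8 fell in SKNO-1 (21.5% and 21.3%; median 0.50), and the interaction was higher in 20 and lower in 6. IRF1, an interferon regulatory factor, went from 26.3 and 21.5 to 103 and 105 CPM in SKNO-1 and from 8.76 and 8.45 to 150.4 and 146 CPM in U-937. STAT2 and IRF9, subunits of the interferon-activated factor ISGF3, rose in U-937 (1.85 and 3.09) and were not called in SKNO-1 (0.02 and 0.07). BST2, tetherin, rose by 4.69 in SKNO-1 and 0.45 in U-937, and MX2 rose in SKNO-1 (2.19) and fell in U-937 (-0.47). Of 10 MHC class II genes, 7 rose and 1 fell in U-937 and 9 rose in SKNO-1. CIITA, their master regulator, rose in SKNO-1 (0.76) and was at -0.08 in U-937 (adjusted p = 0.737; interaction adjusted p = 0.00464).

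Cytokine signalling genes included several opposite members. Of 28 tested, 18 rose and 3 fell in U-937 (29.2% and 28.7% of all tested genes; median 0.64) and 11 rose and 7 fell in SKNO-1 (21.5% and 21.3%; median 0.09, or -0.11 with the GC trend removed). OSM, oncostatin M, an early STAT5 target, went from 17.9 and 11.1 to 2.37 and 2.76 CPM in SKNO-1 and from 0.242 and 0.229 to 1.53 and 1.42 CPM in U-937. JAK2 (1.83 and -0.80), STAT3 (0.68 and -0.59), PIM1 (0.71 and -0.27) and DUSP6, a phosphatase of ERK (2.34 and -0.60), likewise rose in U-937 and fell in SKNO-1. SOCS3, a feedback inhibitor of JAK signalling, rose in both (4.21 and 1.97), and IL10RA, a chain of the IL-10 receptor, rose by 2.77 and 2.93 with no called difference. GM-CSF, which signals through JAK2 and STAT5, was present in SKNO-1 medium alone. Of 23 tested cytokine and chemokine genes, 15 rose and 2 fell in U-937 and 13 rose and 1 fell in SKNO-1, with CCL5 opposite (-1.25 and 0.67) and CXCR4 higher in both (2.94 and 1.51).

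Cholesterol genes moved both ways within each line. Between the lines, the interaction was higher in 16 of the 30 tested and lower in 2 (17.9% and 22.7% of all tested genes), with a median of 0.47. Of 30 tested cholesterol genes, 9 rose and 7 fell in U-937 (29.2% and 28.7% of all tested genes; median 0.05, or -0.07 on library totals alone) and 5 rose and 16 fell in SKNO-1 (21.5% and 21.3%; median -0.27). HMGCS1, a synthase at the head of the pathway, went from 388 and 427 to 150.4 and 156 CPM in SKNO-1 and from 218 and 226 to 201 and 232 CPM in U-937. The fall in SKNO-1 was -1.41 (SE 0.0879) and the interaction 1.38 (adjusted p = 3.38e-08), and LSS, CYP51A1, FDFT1 and SC5D were restricted to SKNO-1 in the same direction. The efflux transporter ABCA1 rose in both lines (5.70 and 4.14).

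Of 27 stress response genes, 9 rose and 13 fell in U-937 and 6 rose and 5 fell in SKNO-1 (medians -0.13 and -0.05). The rises in U-937 and both SKNO-1 counts are near the shares of all tested genes (29.2% in U-937, 21.5% and 21.3% in SKNO-1). PHGDH, the first enzyme of serine synthesis, went from 189 and 179 to 12.8 and 17.4 CPM in U-937 and from 116 and 88.3 to 103 and 106 CPM in SKNO-1, and ATF4, SHMT2 and MTHFD2 also fell in U-937 (-1.26, -1.50 and -2.21) with no call in SKNO-1. CBS, of cysteine synthesis, and ASNS, asparagine synthetase, fell in U-937 (-4.85 and -1.57) and rose in SKNO-1 (0.90 and 0.32). HSPA5, the chaperone BiP of the endoplasmic reticulum, had the reverse pattern (0.55 and -1.17). DDIT4, an inhibitor of mTORC1, rose alike in both (3.63 and 3.45, interaction adjusted p = 0.531).

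Genes of the BCL2 family, of which some oppose and others promote cell death, differed in part. Called interactions were higher in U-937 in 9 of the 15 tested and lower in 1 (17.9% and 22.7% of all tested genes). Of 15 tested, 11 rose and 2 fell in U-937 (29.2% and 28.7% of all tested genes; median 0.68) and 3 rose and 4 fell in SKNO-1 (21.5% and 21.3%; median 0.16, or -0.06 with the GC trend removed). BCL2 went from 104 and 133 to 54.0 and 50.3 CPM in SKNO-1 and from 98.7 and 111 to 7.13 and 6.08 CPM in U-937, falling in both and by more in U-937 (-3.98 against -1.19, interaction adjusted p = 1.57e-10). MCL1 (0.68 and -0.37) and BCL2L1 (0.32 and -0.81), which also oppose cell death, rose in U-937 and fell in SKNO-1. BMF, a BH3-only activator of cell death, rose in both (3.34 and 2.04). Of 17 tested p53 targets, 8 rose and 4 fell in U-937 and 6 rose and 5 fell in SKNO-1 (medians 0.14 and 0.20; the second was -0.11 with the GC trend removed). The falls are near the shares of all tested genes (28.7% in U-937 and 21.3% in SKNO-1), against 29.2% and 21.5% for rises.

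Transcription factors of myeloid and progenitor cells were found among the shared, restricted and opposite genes. Of 31 tested myeloid factors, 19 rose and 6 fell in U-937 (29.2% and 28.7% of all tested genes; median 1.10) and 10 rose and 6 fell in SKNO-1 (21.5% and 21.3%; median 0). CEBPA, the granulocyte lineage factor, went from 9.99 and 7.50 to 26.5 and 24.1 CPM in SKNO-1 and from 129 and 126 to 92.3 and 106 CPM in U-937, an opposite change between lines of unequal start. CEBPE, which acts in later granulocytes, rose in U-937 from 2.96 and 3.24 to 27.9 and 30.0 CPM and was at 17.2 and 9.13 then 14.2 and 14.1 CPM in SKNO-1. CEBPB rose in both (2.60 and 2.01), FOS and RUNX2 rose in U-937 (4.69 and 1.30) and fell in SKNO-1 (-0.87 and -0.88), and ID2 and ID3 rose in both with no called difference.

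Of 18 tested stem and progenitor genes, 6 rose and 8 fell in U-937 and 4 rose and 7 fell in SKNO-1 (medians -0.26 and -0.10). The rises are near the shares of all tested genes (29.2% and 21.5%), against 28.7% and 21.3% for falls. MYB and ERG fell in U-937 (-0.98 and -3.10) and rose in SKNO-1 (0.36 and 0.72), and SOX4 and FLT3 did the reverse (1.33 and 0.79 against -0.57 and -0.42). BMI1, a Polycomb protein, fell in both (-1.42 and -0.89). Among 18 components and partners of CoREST, 3 rose and 9 fell in U-937 and 2 rose and 5 fell in SKNO-1 (medians -0.33 and -0.18). For this list and the next, the all-gene shares of rises and falls are 29.2% and 28.7% in U-937 and 21.5% and 21.3% in SKNO-1. KDM1A and HDAC2, which encode targets of Corin, fell in both, by more in U-937 (-1.23 and -1.01 against -0.32 and -0.31). REST, a member of the CoREST list, fell in both with no called difference (-0.46 and -0.63). Of 21 tested neuronal genes known to be silenced by REST and CoREST, 4 rose and 9 fell in U-937 and 8 rose and 2 fell in SKNO-1 (medians -0.20 and 0.40). The interaction was called in 5 of them, a smaller share than the 40.6% of all tested genes.

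Markers of other blood lineages were at low to moderate levels. For the counts below, the all-gene shares of rises and falls are 29.2% and 28.7% in U-937 and 21.5% and 21.3% in SKNO-1. Of 6 tested lymphoid, stromal and epithelial markers, 4 rose in U-937 and 2 in SKNO-1, and their summed level went from 87.9 to 95.9 CPM in U-937 DMSO to 104 to 115 CPM with the combination and from 23.6 to 33.7 CPM to 27.0 to 27.2 CPM in SKNO-1. The other 13 of the 19 markers had too few counts to test, among them the T-cell genes CD3D, CD3E and CD3G. Of 9 tested erythroid and megakaryocyte genes, 5 rose and 1 fell in U-937 and 6 rose and 2 fell in SKNO-1, where SELP, P-selectin of platelets, went from 0.0600 and 0.0282 to 48.8 and 46.5 CPM and GFI1B, a repressor that recruits CoREST, from 0.120 and 0 to 8.66 and 9.55 CPM. Of 16 eosinophil, basophil and mast cell genes, 1 rose and 4 fell in U-937 and 4 rose and 5 fell in SKNO-1.

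Levels with 1 agent alone were read beside the 2 groups compared, as a description without a test. HIC1 with ATRA alone was at 31.0 ± 3.10 CPM (mean ± SD, n = 2, as in the rest of this paragraph) in SKNO-1 and 21.2 ± 2.13 CPM in U-937, near its combination level in both, and with Corin alone at 0.259 ± 0.0272 and 0.114 ± 0.0163 CPM. CYP26A1 was at 6.16 ± 0.190 CPM with ATRA alone in SKNO-1, below the 21.1 ± 1.46 CPM of the combination. PFN2 in SKNO-1 was at 85.1 ± 2.04 CPM with Corin alone and 10.6 ± 0.214 CPM with ATRA alone, and WFDC1 at 37.7 ± 1.87 and 0.627 ± 0.0162 CPM. In U-937 PSAT1 was at 24.7 ± 0.835 CPM with ATRA alone and 89.3 ± 14 CPM with Corin alone, against 4.39 ± 0.900 CPM with both. CD52 in U-937 was at 4.61 ± 0.332 CPM with ATRA alone, 9.15 ± 1.57 CPM with Corin alone and 148 ± 12.9 CPM with both, and LILRA5 at 40.4 ± 3.82, 7.95 ± 0.940 and 349 ± 28.2 CPM. RNASE2 in U-937, steady with the combination, was at 293 ± 44.1 CPM with Corin alone and 135 ± 2.19 CPM with ATRA alone, against 126 ± 5.25 CPM in DMSO.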

How the data were processed

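RNA-seq (stranded total RNA) was made from 16 libraries in 8 groups, 2 a group. Per the submitters' processing notes, the tools were Trimmomatic, STAR, RSEM, deepTools and DESeq2 with build hg38; their versions are not given in the sources used here. The deposited table holds the authors' RSEM expected counts per gene, of which 20.4% of positive values were not whole; they were rounded. Total-RNA libraries keep noncoding and unspliced RNA, and reads shared by near-identical genes are split by estimation.

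Genes passing filterByExpr in edgeR 4.0.16 (R 4.3.3) were scaled by TMM and fitted over all 16 libraries with robust quasi-likelihood, which left 8 residual degrees of freedom. The U-937, SKNO-1 and interaction contrasts were each Benjamini-Hochberg adjusted over all 19872 genes, with calls at 0.05. A fold against a group at 0 is a lower bound set against 3 counts over that group, and intervals cover counting error only. The members, gene lists and tests were chosen with earlier results of these data known. Named genes were protein-coding, averaged at least 5 CPM over the 8 libraries compared, and ranked first by fitted log2 values in each class. Genes with clone names were left out. Naming by rank also required both combination libraries to lie beyond both DMSO libraries in each line called. That separation is thus fixed by the choice. Members of the 26 gene lists and genes whose promoters are printed were named as well. Promoter windows came from a RefSeq table (GRCh38.p14), in which 38 of 54 named genes had one, and positions from GENCODE 44, which matched 60306 of 60603 identifiers. The labels do not say whether replicate numbers pair the samples, and the main fit did not pair them. Python 3.11.15, pandas 2.3.3 and scipy 1.17.1 did the rest. Alternatives were DESeq2 1.42.0, other scalings and filters, a GC offset, a replicate block, the 8 libraries alone, stricter thresholds and each library left out; fits that combine the GC offset with a left-out SKNO-1 DMSO library were chosen after seeing the data.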

Additional observations from a re-analysis of the deposited data

Results flagged for a closer look

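The combination response differed between the lines in 8072 genes by the interaction term, which is a test of the difference itself. The genes below were named for the size of that difference, so their values describe it and add no support to it.

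Values of the interaction (log2 change in U-937 minus that in SKNO-1) were positive among genes expressed in both lines for TGM2 at 9.96, CD52 at 8.0, CXCR5 at 7.03, ADGRE3 at 6.41, PLXDC2 at 6.16 and P2RY13 at 5.99. They were negative for DGKI at -12.14, NCS1 at -7.70, DHRS3 at -6.94, WFDC1 at -6.75, IGLL1 at -6.60 and EPHB4 at -5.96. With SKNO-1 silent, the interaction was 7.98 for CD36, 7.71 for BPI, 7.53 for S100A8, 7.30 for GPR34, -6.59 for TSHZ3, -7.85 for KAZN and -7.80 for SEPT3, and with U-937 silent it was -13.96 for CYP26A1. Where a group had 0 counts (CD36, CXCR5, CYP26A1, DHRS3, KAZN, SEPT3, TSHZ3), the fitted size is no measured fold and no bound.

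Opposite changes gave interactions of 4.27 for MGLL, 4.23 for BTG2, 3.23 for LTBP1, 2.76 for ARHGAP24 and 2.54 for ENC1, all up in U-937. They gave -6.00 for ASS1, -5.34 for PFN2 and -5.31 for CCDC136, all down in U-937.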

How the results depend on the processing

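The interaction count was 7628 with DESeq2, 6908 with the 8 libraries alone and 9003 with the GC trend removed. Leaving out each library in turn gave 6954 to 8571 interaction calls, 10155 to 12354 calls in U-937 and 6258 to 9418 in SKNO-1, and class counts of 3590 to 5051 (same direction), 2073 to 2743 (not shown to differ), 1517 to 2308 (different size), 782 to 1655 (opposite), 2911 to 3869 (restricted to U-937) and 849 to 1396 (restricted to SKNO-1). A gene can change class while the count stays near: with the GC trend removed 86.8% of the opposite genes kept that class. With adjusted p under 0.01, 1408 genes differed in size and 673 were opposite; with all calls also beyond 1 on the log2 scale, 1342 genes had the same direction, 991 of them not shown to differ and 351 of different size, 210 were opposite and 656 were restricted to SKNO-1. With the replicate block the interaction was called in 7745 genes; the numbers share no stated source, and the deviations of same-numbered DMSO and combination libraries had correlations of -0.185 (SKNO-1) and 0.402 (U-937).

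Of 140 values of genes named by rank, 127 kept their direction and call under all 19 alternatives, 10 lost a call at least once, 1 gained one and 2 reversed. The reversed values were the interactions, never called, of KCNN2 (-2.20 to 1.93 over the left-out libraries, the latter without SKNO-1 combination replicate 2) and LILRA5 (-0.40 to 2.65, the former without SKNO-1 DMSO replicate 2, with or without the GC trend). List medians near 0 also turned. The CoREST interaction median ran from -0.29 to 0.10 over the left-out libraries, the latter without SKNO-1 DMSO replicate 1, and was 0.13 with the GC trend also removed, where that of the G1 list was 0.078. The eosinophil interaction median ran from -0.34 to 0.10, the latter without U-937 combination replicate 1. The lymphoid interaction median was -0.054 on library totals and ran from -0.27 to 1.37 over the left-out libraries, with -0.23 without SKNO-1 combination replicate 1 and -0.27 without SKNO-1 DMSO replicate 1, and its SKNO-1 median from -0.084 (without SKNO-1 combination replicate 2) to 1.64. With the GC trend removed, SKNO-1 medians were -0.11 for cytokine signalling (-0.17 without DMSO replicate 1), -0.0595 for the BCL2 family (-0.13 without DMSO replicate 2) and -0.11 for p53 targets, with the replicate block added as well (-0.11, -0.0585 and -0.11). The cholesterol U-937 median was -0.068 on library totals. The cause of these changes was not tested. With 28.8 to 36.9 M counts a library, genes under 0.5 CPM rest on few reads, and absence there is not shown.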
